A study of Rattus norvegicus with 24 samples.

Results

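Myod1 (ENSRNOG00000011306) and Myog (ENSRNOG00000030743) were followed in RNA from rat plantaris, a calf muscle, after 14 days of functional overload. They are 2 of the 31998 genes in the deposited count table and were picked out by their Ensembl gene IDs, and both had enough reads to be among the 16661 genes tested. All 24 libraries came from female rats aged 14 months, of generation 19 of the LRT and HRT lines, selected for a low (LRT) or a high (HRT) response to endurance training. The 4 groups of 6 libraries were LRT with functional overload, LRT control, HRT with functional overload and HRT control. Overload was made by removing the gastrocnemius and soleus of one leg, so that the plantaris carried their load. Whether control muscles were taken from other rats or from the opposite leg is not in the labels, nor is it stated that replicates are separate animals, so the p-values cover the spread among these libraries, which may be technical.

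Myod1 and Myog are basic helix-loop-helix transcription factors of the myogenic regulatory family, which pair with E proteins and bind the E-box motif CANNTG. In muscle repair and growth, Myod1 marks activated satellite cells (the stem cells of muscle) and commits them to the muscle fate, and Myog acts later, when myoblasts stop dividing, differentiate and fuse. Both are also transcribed in adult fibres. In rodents Myod1 is the more abundant in fast muscle and Myog in slow muscle, and both rise after denervation.

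The sequence just before the start of Myog is shown because its control elements are well studied. The Myog promoter is a textbook case in which an E-box, a site for the MEF2 factors and a MEF3 site, bound by homeobox proteins of the sine oculis family, lie close together, as described in the mouse. The stretch is the 250 bases before the annotated start in RefSeq (build GRCr8, chr13:48297226-48297475, plus strand), which is not the build of the count table. RefSeq's table of promoters gave an entry for Myog and none for Myod1. Capitals mark the letters searched for on both strands.
Myog: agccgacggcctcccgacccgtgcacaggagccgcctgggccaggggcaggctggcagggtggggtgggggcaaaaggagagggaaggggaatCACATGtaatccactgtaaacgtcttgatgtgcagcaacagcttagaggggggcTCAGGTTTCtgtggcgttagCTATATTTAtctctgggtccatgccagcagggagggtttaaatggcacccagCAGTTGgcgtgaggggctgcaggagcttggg
The E-box pattern CANNTG occurred 2 times, as CACATG at bases 157 to 152 before the start and as CAGTTG at bases 31 to 26. The first 9 letters of the MEF2 site, CTATATTTA, stood at bases 83 to 75, and the MEF3 letters TCAGGTTTC at bases 103 to 95. Of 33469 rat promoters of the same length, 65.5% held a CANNTG, 11.4% held CAGTTG, 0.37% held TCAGGTTTC and 0.227% held CTATATTTA. Words with more fixed letters are rarer by length alone. The MEF2 and MEF3 letters were chosen as those of the Myog promoter, so these shares do not mark out the matches. None of the 4 patterns overlapped another, apart from CAGTTG, which is itself a CANNTG. These are matches of letters, and binding was not measured.

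The pair moved in opposite directions with overload in both lines. Myog, the later-acting factor, rose 2.03-fold in LRT and 2.15-fold in HRT muscle, and Myod1, the earlier one, fell 1.42-fold and 1.92-fold. Levels are library-size-scaled counts (CPM), with libraries made comparable by the trimmed mean of M values method (TMM), and fold changes are overload over control. Levels of the 2 genes were not set against each other, since CPM is not corrected for transcript length.

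Myog in LRT overload had 28.7, 39.5 and 55.9 CPM (lowest, median and highest of 6 libraries), against 13.8, 18.6 and 27.5 CPM in LRT control. The groups did not overlap: each of the 6 overloaded libraries lay above each control library. How many of all tested genes separated as far was not counted, here or for the overlaps given below. Separation therefore does not mark out either gene. The means were 39.9 ± 9.77 CPM in LRT overload and 19.6 ± 5.48 CPM in LRT control (SD, n = 6 each), a log2 fold change of 1.02 ± 0.223 (SE; 95% interval 0.56 to 1.49), or 2.03-fold (edgeR adjusted p = 0.000473). An exact permutation test of the log2 values, two-sided, gave p = 0.00216, the smallest this design allows. In this comparison 57.2% of tested genes passed the same threshold of 0.05 on the adjusted p, 28.9% upward, so a rise was common. A lower log2 fold change than that of Myog was found in 87.1% of tested genes.

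Myog in HRT overload had 21.9, 38.4 and 54.9 CPM (lowest, median and highest of 6 libraries), against 13.0, 16.7 and 23.6 CPM in HRT control. Here 5 of 6 overloaded libraries lay above every control library. The remaining one, replicate 4, was at 21.9 CPM, within the control range and below HRT control replicates 3 and 4 at 23.2 and 23.6 CPM. The means were 38.4 ± 11.9 CPM in HRT overload and 17.8 ± 4.98 CPM in HRT control (SD, n = 6 each), a log2 fold change of 1.11 ± 0.224 (SE; 95% interval 0.64 to 1.57), or 2.15-fold (edgeR adjusted p = 0.000176; exact permutation p = 0.00649, two-sided). Of all tested genes 63.2% passed in this comparison, 31.9% upward, and 86.1% had a lower log2 fold change than Myog.

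Myod1 in LRT overload had 7.04, 8.76 and 11.7 CPM (lowest, median and highest of 6 libraries), against 11.0, 12.3 and 15.3 CPM in LRT control. Of the overloaded libraries 5 of 6 lay below every control library, and replicate 5, at 11.7 CPM, lay inside the control range. The means were 8.98 ± 1.65 CPM in LRT overload and 12.7 ± 1.51 CPM in LRT control (SD, n = 6 each), a log2 fold change of −0.51 ± 0.165 (SE; 95% interval −0.85 to −0.17), or 1.42-fold lower (edgeR adjusted p = 0.0115; exact permutation p = 0.00433, two-sided). A fall was called for 28.3% of tested genes in this comparison, and 88.6% of tested genes had a higher log2 fold change than Myod1. This call depended on the scaling. With libraries scaled by their totals alone, it stood at −0.26 on the log2 scale (edgeR adjusted p = 0.16), while the median over all tested genes shifted to 0.222, against −0.022 with TMM. Relative to the median of its own scaling the change was −0.48 under either. Subtracting the median takes out a shift shared by all genes, so this match was built in. It does not show which scaling is right. Over all tested genes, scaling by totals called 6765 higher and 1893 lower in LRT overload, against 4808 higher and 4716 lower with TMM.

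Myod1 in HRT overload had 4.88, 5.71 and 9.26 CPM (lowest, median and highest of 6 libraries), against 7.61, 13.6 and 15.1 CPM in HRT control. Here 4 of 6 overloaded libraries lay below every control library. The overlap came from a single control, replicate 2 at 7.61 CPM, since the other 5 controls lay above every overloaded library. That replicate also had the lowest library total (26997674 counts) and the lowest RNA integrity number (RIN, 8) of the 24 libraries, and their part in its Myod1 level was not tested. The means were 6.64 ± 1.90 CPM in HRT overload and 12.7 ± 2.76 CPM in HRT control (SD, n = 6 each), a log2 fold change of −0.94 ± 0.166 (SE; 95% interval −1.29 to −0.60), or 1.92-fold lower (edgeR adjusted p = 3.28e-05; exact permutation p = 0.00649, two-sided). Without that control it was −1.06 on the log2 scale (edgeR adjusted p = 3.33e-06). A fall was called for 31.2% of tested genes, and 96.0% of tested genes had a higher log2 fold change than Myod1. Scaled by totals alone it stood at −0.67 on the log2 scale (edgeR adjusted p = 0.000596), which is −0.94 relative to the median of 0.27 under that scaling, with 7942 genes called higher and 2238 lower in HRT overload, against 5319 higher and 5204 lower with TMM.

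**Figure D1:**
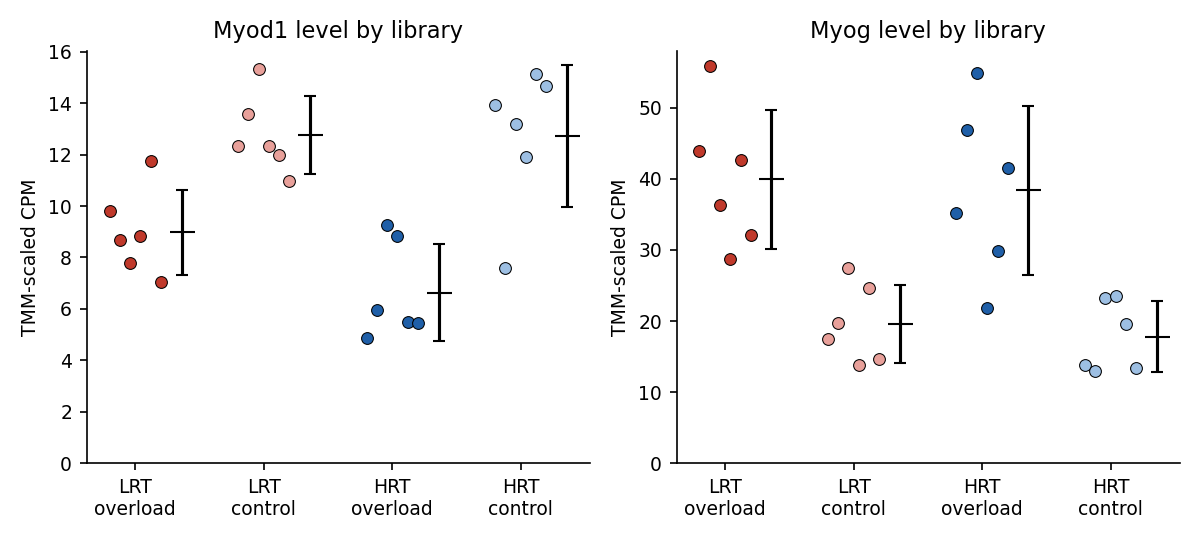
Level of Myod1 (left) and Myog (right) in each library, in TMM-scaled CPM on a linear axis from 0, with 6 libraries per group as points in replicate order and the mean ± SD beside them. Myog was higher in overloaded than in control muscle in both lines, with HRT overload replicate 4 at 21.9 CPM inside the control range, and Myod1 was lower in overloaded muscle.

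In RNA of whole muscle, fewer cells that carry a transcript and less of it per cell cannot be told apart. Markers of satellite cells, fibres, leukocytes and other cell types, and lists of partners and targets of the pair, were not analysed here, since the table gives IDs without names. RNA integrity moved with overload. The RIN averaged 8.67 ± 0.258 in LRT overload and 8.28 ± 0.147 in LRT control, and 8.97 ± 0.327 in HRT overload and 8.27 ± 0.216 in HRT control (SD, n = 6 each). With RIN as a covariate, the log2 fold change of Myog was 0.88 in LRT and 0.85 in HRT (edgeR adjusted p = 0.00524 and 0.027), and that of Myod1 was −0.67 in LRT and −1.23 in HRT (edgeR adjusted p = 0.00474 and 0.000234). Library totals ran from 26997674 to 34254957 counts, and Myod1 had 184 to 440 and Myog 331 to 1941 estimated counts per library. A count of 184 has a 95% exact Poisson interval of 158 to 213, which covers counting error only. That counting error is 7.37% of the value, below the coefficient of variation of Myod1 in each group, 11.9% to 28.6%. At the lowest Myog count it is 5.50%, against a variation of 24.5% to 31.1% within groups.

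The comparison between lines asked whether LRT and HRT muscle differed in the pair at rest or in the size of its response. In control muscle neither gene was called, in a comparison where 1.97% of tested genes were. Mean Myod1 was 12.7 CPM in both lines, and the LRT over HRT log2 fold change was 0.00 ± 0.164 (SE; 95% interval −0.34 to 0.34; edgeR adjusted p = 0.999). The medians were 12.3 CPM in LRT control and 13.6 CPM in HRT control, and the ranges overlapped, with 5 of 6 LRT libraries inside the HRT range. Mean Myog was 19.6 CPM in LRT control and 17.8 CPM in HRT control, a log2 fold change of 0.14 ± 0.224 (95% interval −0.32 to 0.61; edgeR adjusted p = 0.813). These intervals do not show that the lines were equal.

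In overloaded muscle Myod1 was 8.98 ± 1.65 CPM in LRT and 6.64 ± 1.90 CPM in HRT (SD, n = 6 each). The log2 fold change of LRT over HRT was 0.44 ± 0.167 (SE; 95% interval 0.09 to 0.78), which did not pass over all genes (edgeR adjusted p = 0.127; 3.09% of tested genes passed). An exact permutation test of this single value gave p = 0.0411, two-sided, among 8 such tests of the pair. The ranges overlapped: 2 of 6 LRT libraries lay above every HRT library, and 4 HRT libraries lay below every LRT library. With each of the 24 libraries left out in turn, it did not pass in 22 cases. It passed without HRT overload replicate 3 (log2 fold change 0.56, edgeR adjusted p = 0.0349) and without HRT overload replicate 4 (log2 fold change 0.54, edgeR adjusted p = 0.0494). A fit to the 2 overloaded groups alone gave an edgeR adjusted p of 0.246. Myog was 39.9 ± 9.77 CPM in LRT overload and 38.4 ± 11.9 CPM in HRT overload, a log2 fold change of 0.06 ± 0.219 (95% interval −0.39 to 0.51; edgeR adjusted p = 0.908).

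The responses of the lines were compared directly as LRT minus HRT on the log2 scale. For Myod1 the difference was 0.44 ± 0.233 (SE; 95% interval −0.04 to 0.92; edgeR adjusted p = 0.414), so the smaller fall in LRT was not shown to differ from that in HRT. For Myog the difference was −0.08 ± 0.313 (95% interval −0.73 to 0.56; edgeR adjusted p = 0.928). Few genes passed this test at all, 0.048% of those tested. By mean level the order of groups for Myog was HRT control, LRT control, HRT overload and LRT overload from low to high. The steps between the 2 control groups and between the 2 overloaded groups did not pass the tests above, and LRT control and HRT overload, which differ in both line and state, were not tested against each other. For Myod1 it was HRT overload, LRT overload and then the 2 control groups, whose means differed by less than their SD.

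**Figure D2:**
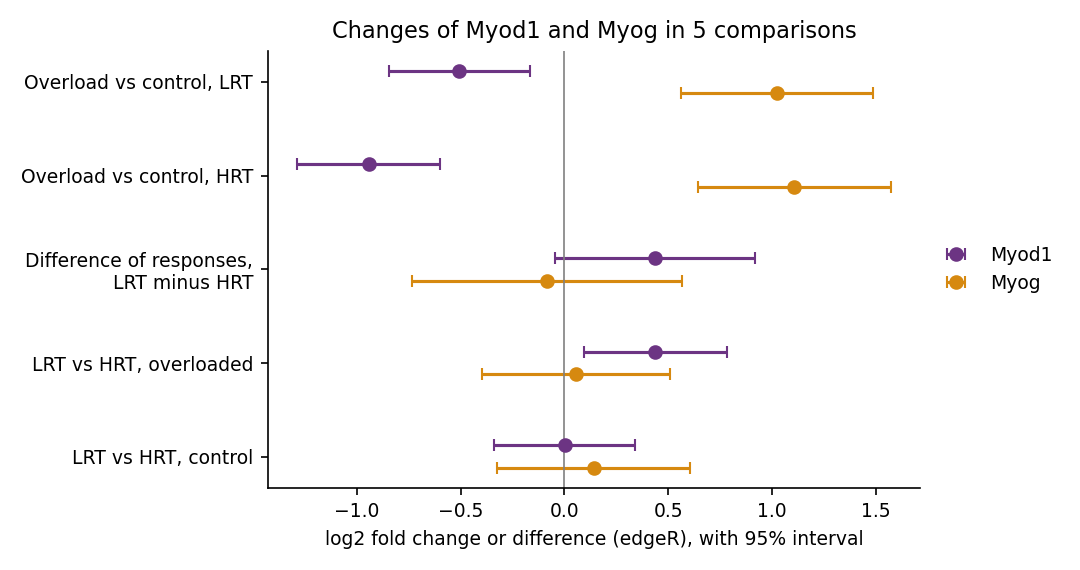
Log2 fold changes of Myod1 and Myog from the edgeR model of all 24 libraries, with 95% intervals, for overload over control in each line, the difference of these responses, and LRT over HRT in each state. Myog lies at 1.02 and 1.11 and Myod1 at −0.51 and −0.94 for overload, and the intervals of the differences of responses include 0.

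The level of Myog relative to Myod1 was taken within each library as log2 Myog CPM minus log2 Myod1 CPM (pseudocount 0.5 CPM). This quantity hardly depends on how libraries are scaled. It also carries the lengths of the transcripts, so only its change between groups was read. In LRT overload it was 1.64, 2.11 and 2.62 (lowest, median and highest of 6 libraries), against 0.16, 0.50 and 1.01 in LRT control. In HRT overload it was 1.26, 2.62 and 2.88, against −0.12, 0.55 and 0.96 in HRT control. In each line all 6 overloaded libraries lay above all 6 controls, HRT overload replicate 4 included. How often the ratio of another risen gene to another fallen gene separates in this way was not counted. The difference of means was 1.51 in LRT, a 2.84-fold change of the ratio, and 1.97 in HRT, a 3.92-fold change. These sum up the opposite changes given above and are no further support for them. The means were 2.08 ± 0.335 in LRT overload and 0.57 ± 0.306 in LRT control, and 2.42 ± 0.604 in HRT overload and 0.45 ± 0.447 in HRT control (SD, n = 6 each).

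The change of the ratio was 0.46 smaller in LRT than in HRT, a difference of −0.46 that did not pass (permutation p = 0.201, two-sided, with lines permuted within each state). With each of the 24 libraries left out in turn, it did not pass in 23 cases. The exception was HRT overload replicate 4, without which it was −0.70 (permutation p = 0.0312, unadjusted). That library combined the lowest Myog of its group with the second highest Myod1, 21.9 and 8.82 CPM.

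**Figure D3:**
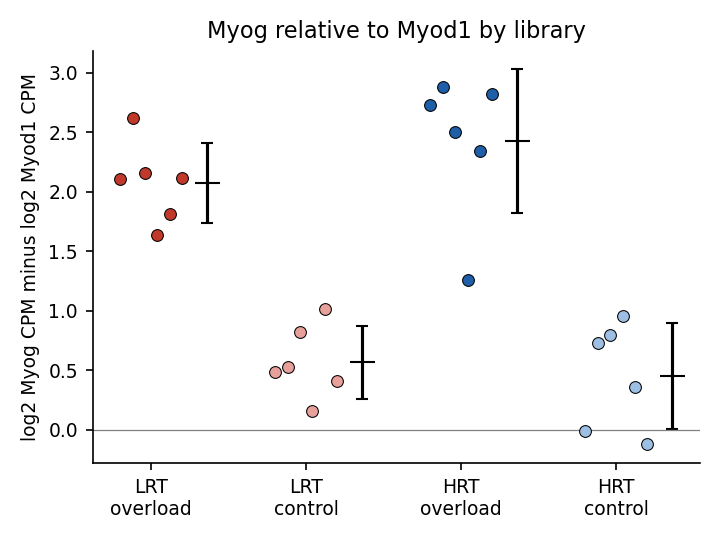
Log2 Myog CPM minus log2 Myod1 CPM in each library, 6 libraries per group as points and the mean ± SD beside them. All 12 overloaded libraries lie at 1.26 or above and all 12 control libraries at 1.01 or below, and HRT overload replicate 4 is the lowest overloaded library.

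Within groups the pair did not track each other in a way these libraries could resolve. Correlations of log2 CPM were taken in each group of 6, since the groups form separate clusters. In LRT overload Pearson's r was 0.39 (exact permutation p = 0.453) and Spearman's rho 0.31 (exact permutation p = 0.564), and r was 0.19 without the 2 libraries farthest from the median Myod1. With libraries scaled by totals alone that r was 0.61 (exact permutation p = 0.186). In LRT control r was 0.67 (exact permutation p = 0.153) and rho 0.54 (exact permutation p = 0.297), and r was −0.04 without the 2 farthest libraries. In HRT overload r was −0.03 (exact permutation p = 0.958) and rho 0.26 (exact permutation p = 0.658), with r at 0.52 without the 2 farthest. In HRT control r was 0.28 (exact permutation p = 0.764) and rho 0.03 (exact permutation p = 1), with r at −0.37 without the 2 farthest. Over the 4 groups the adjusted p lay between 0.612 and 0.958 for r and between 0.877 and 1 for rho.

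**Figure D4:**
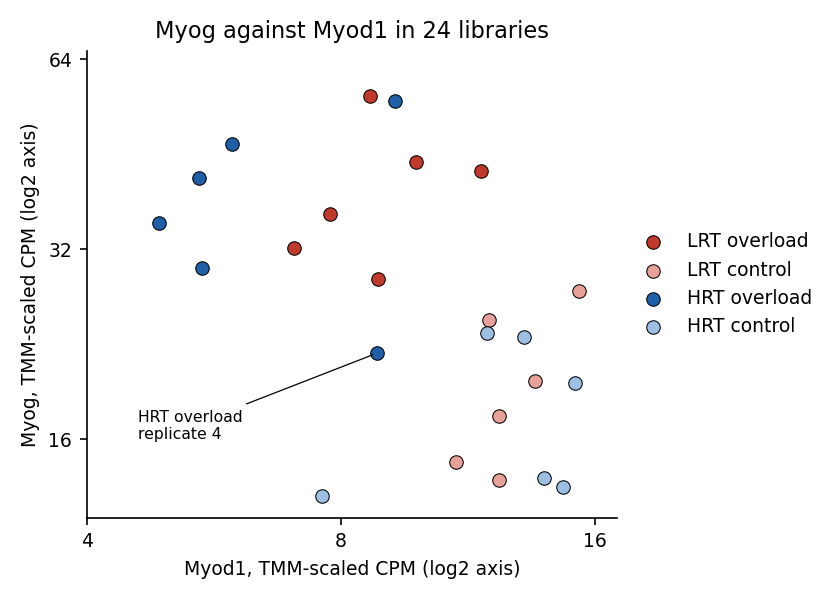
Myog against Myod1 in the 24 libraries, both in TMM-scaled CPM on log2 axes, with one colour per group. Most overloaded libraries lie to the upper left of most control libraries, with overlap in each gene: HRT control replicate 2 is at 7.61 CPM Myod1, below 7 of the 12 overloaded libraries, and HRT overload replicate 4 (8.82 CPM Myod1, 21.9 CPM Myog) lies within the Myog range of the controls.

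The genes whose levels ran most closely with each factor were found by Pearson's r of log2 CPM among the 12125 other genes whose log2 CPM averaged 1 or more, and are given by ID. These r describe likeness, with no test, and each gene was picked as the highest of 12125, which raises its r. Over all 24 libraries they include any shared step between control and overload, and how much of r it made up was not measured. For Myog the closest over 24 libraries was ENSRNOG00000016368 (r = 0.91), with log2 fold changes under overload of 3.03 ± 0.432 in LRT and 2.89 ± 0.438 in HRT (SE; edgeR adjusted p = 4.31e-06 and 5.95e-06). Among the 12 overloaded libraries with group means subtracted, where that step plays no part, it was ENSRNOG00000018286 (r = 0.98), with log2 fold changes of 1.58 ± 0.341 in LRT and 1.74 ± 0.341 in HRT (edgeR adjusted p = 0.000447 and 0.000139). ENSRNOG00000018286 was also the third closest to Myog over the 24 libraries (r = 0.91).

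For Myod1 the closest over 24 libraries was ENSRNOG00000013386 (r = 0.90), which fell with overload by 0.37 on the log2 scale in LRT and by 0.50 in HRT (edgeR adjusted p = 0.00033 and 7.74e-06). Among overloaded libraries with group means subtracted it was ENSRNOG00000015912 (r = 0.95), which fell by 0.35 in LRT and by 0.23 in HRT (edgeR adjusted p = 9.76e-06 and 0.000669). By the same measure the second closest (r = 0.95) and the fifth (r = 0.91) also fell in both lines, and the third (r = 0.94) passed in neither. The fourth (r = 0.92) rose, by 0.84 in LRT and 0.78 in HRT (edgeR adjusted p = 1.11e-05 and 1.83e-05). In the same overloaded libraries Myog itself had r = 0.11 with Myod1 and ranked 5900 in likeness to it among the 12125 genes.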

How the data were processed

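Total RNA of plantaris was sequenced with the TruSeq kit, per the labels' protocols. The authors deposited unnormalized estimated counts for 31998 genes. Salmon 0.9.1 and the builds rn6 and Rnor_6.0 are named in the submitters' processing notes. Annotation and settings: not given in the sources used here. Estimated counts divide ambiguous reads between similar genes. The name table (GRCr8) matched 0 IDs, so Myod1 and Myog are named by the IDs they were selected with, this pairing could not be checked, and the 5 gene lists and the cell type markers were not tested. The genes, lists and rules were chosen with earlier results of these data known. The rule for named genes took the 2 factors and, where IDs have no names, the most alike gene by each of 2 measures.

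Counts were rounded. In R 4.3.3, edgeR 4.0.16 (filterByExpr, minimum count 10 and minimum total 15; TMM scaling; robust quasi-likelihood F-test, 1 coefficient per group, no covariates) was fitted to all 24 libraries. Benjamini-Hochberg adjustment ran over the 16661 genes kept, with a threshold of 0.05. Standard errors were derived from the log2 fold change and its F statistic. The model was tested on simulated counts in which few genes changed, as many up as down and in HRT overload alone. Such counts do not test the choice of scaling where most genes were called. Exact tests enumerated 924 splits or 720 pairings of log2(CPM + 0.5), and the difference of ratio changes used 100000 permutations (SciPy 1.17.1). Alternatives included DESeq2 1.42.0, limma-voom (limma 3.58.1), other scalings and filters, RIN, a replicate block, and each library left out. No 2 libraries agreed within sampling noise (60 pairs of the same group, chi-square per degree of freedom at least 11.6).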

Additional observations from a re-analysis of the deposited data

Results flagged for a closer look

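The level of Myog relative to Myod1 in HRT overload replicate 4 was 1.26 on the log2 scale, apart from the other 5 libraries of its group, which lay between 2.34 and 2.88. The gap to the nearest of them was 0.669 of the range of the group, above the 95% critical value of Dixon's test of 0.625. It was the 1 such case among 12 checks (2 genes and their ratio in 4 groups), and chance flags about 1 in 20 groups. The library had a total of 34254957 counts, the highest of the 24, and a RIN of 8.9, inside the range of its group (8.6 to 9.4), and their part was not tested. Without it the log2 fold change in HRT was 1.22 for Myog and −1.04 for Myod1 (edgeR adjusted p = 3.55e-05 and 1.23e-05).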

How the results depend on the processing

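Overload calls held whichever library was left out, with log2 fold changes from −1.06 to −0.87 (Myod1, HRT), −0.60 to −0.44 (Myod1, LRT), 0.98 to 1.22 (Myog, HRT) and 0.90 to 1.14 (Myog, LRT). Under the other settings they held except for Myod1 in LRT with totals alone (−0.26, edgeR adjusted p = 0.16) and Myog in HRT with the replicate block and RIN (0.60, edgeR adjusted p = 0.143); the cause was not tested. The deviations of same-numbered libraries had a correlation over 0.1 in 0 of 6 pairs in HRT and 1 of 6 in LRT for overload against control, and between lines in 5 of 6 overloaded pairs and 0 of 6 control pairs. The numbers were not taken to pair samples. With the replicate block alone these 4 changes were −0.95, −0.51, 1.07 and 1.05, and no call changed.

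Line differences near 0 changed sign. For Myod1 in control muscle the log2 fold change was −0.0020 (DESeq2), −0.0021 (DESeq2 size factors), −0.017 (compared groups alone), −0.093 (totals alone), −0.017 (no filter), −0.0043 (replicate block and RIN) and −0.010 (stricter filter), and −0.11 to 0.056 with libraries left out. For Myog in overloaded muscle it was −0.084 (totals alone) and −0.063 to 0.19 with libraries left out. The Myog difference of responses was 0.033 (RIN), 0.17 (replicate block and RIN) and −0.20 to 0.046 with libraries left out. The Myod1 difference in overloaded muscle ran from 0.35 to 0.56 with libraries left out and was 0.43 in the exact permutation test (p = 0.0411, unadjusted; the edgeR fit gave 0.0148 unadjusted). The difference of the ratio changes ran from −0.70 to −0.35. The within-group r in HRT overload was 0.038 with totals alone.

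Over all genes, 328 were called between lines in control muscle (76 higher, 186 lower in LRT with totals alone; 203 and 125 with TMM; 619 by DESeq2, 206 with no filter, 154 to 495 with libraries left out). In overloaded muscle it was 514 (1093 by DESeq2, 785 with RIN, 115 in the compared groups alone, 2153 with totals alone (225 higher, 1928 lower in LRT; 266 and 248 with TMM), 307 with no filter, 289 with the replicate block and RIN, 171 to 1647 with libraries left out). For the difference of responses it was 8 (137 by DESeq2, 1 with DESeq2 size factors, the replicate block, or the block and RIN, 2 with RIN or limma-voom, 5 with no filter or no robust estimation, 1 to 25 with libraries left out). Total counts for overload stayed within 1.5 times, but lower calls dropped past that with totals alone in both lines, and in HRT to 3281 with the replicate block and RIN, against 5204. The planned list counts were not run, as no ID matched a name.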
